A study of Homo sapiens with 5 samples.

Results

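Genes of protein folding were compared in HepG2 cells with LSD2 depleted by siRNA and with a control siRNA. They were the genes with a probe set of a single symbol that matched a fixed set of names. The names covered the heat shock protein families HSP70, HSP90, HSP110 and small HSP, the J-domain (DNAJ) co-chaperones, the mitochondrial chaperonin HSPD1 and HSPE1, and the cytosolic chaperonin TCP1 and CCT subunits. They also covered the BAG nucleotide exchange factors, HSF1, and the chaperones, disulfide isomerases and stress sensors of the endoplasmic reticulum (ER). This gave 84 of the 12893 genes measured, on 193 probe sets. By the site of the protein, 48 were placed in a cytosolic and nuclear group, 10 in a mitochondrial group and 25 in an ER group, and the membrane J-domain gene DNAJC22 was left outside the groups. Another 7 genes matched the names only through probe sets that also carry another symbol, and they have no value here: HSPA1A, HSPA1B, HSPA1L, HSPA8, TCP1, PDIA5 and DNAJC25. The main stress-inducible and constitutive cytosolic HSP70 genes are thus outside the set.

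HepG2 is a human line from a liver carcinoma with many functions of hepatocytes. The cells were kept in medium with 25 mM glucose and 10% serum and were transfected with siRNA at roughly 50% confluence, with 3 to 4 days of culture before harvest. LSD2, encoded by KDM1B, removes methyl groups from lysine 4 of histone H3, and it was depleted with 3 different siRNAs, each on 1 array. The control siRNA, against the luciferase sequence GL3, was on 2 arrays, the second of which is labelled a technical replicate of the first, so both were averaged to 1 control sample. The transient knockdown left part of the KDM1B transcript, at 16.5%, 30.2% and 38.4% of the control under siRNAs 1, 2 and 3 if the logarithm has base 2. All differences below are on the log2 scale, LSD2 siRNA minus the control mean, and SDs are over the 3 siRNAs. For KDM1B, probe set 227021_at stood at -3.95, -2.94 and -1.82 under siRNAs 1, 2 and 3, and 1553150_at at -1.25, -0.52 and -0.95. The size and the order of the siRNAs thus depended on the probe set, and the KDM1B control arrays were 0.78 apart. The deposited values have each probe set centred on its median over the 5 arrays, so levels are not compared between genes, and the hepatic markers of the line could not be checked as levels. In such bulk RNA, fewer cells that express a gene and less of its RNA per cell cannot be told apart.

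Heat shock proteins are chaperones that hold or refold other proteins. In the cytosol HSP70 works with J-domain proteins, which deliver substrates and trigger its ATPase, and with BAG proteins, which release the nucleotide. HSP90 and the ring-shaped chaperonin finish particular clients, and small heat shock proteins hold unfolded chains without ATP. HSF1 is the transcription factor that switches on many of these genes through heat shock elements, repeats of the unit GAA in alternating directions. In the ER, where hepatocytes fold the plasma proteins they secrete, BiP (HSPA5), GRP94 (HSP90B1), the lectins calnexin and calreticulin and the disulfide isomerases do this work. The sensors ATF6 and IRE1 (ERN1), the latter through splicing of XBP1, switch on their genes through the ER stress element.

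The promoters show which members carry these elements. The stretches printed were picked among members with a match, as ones that stood far from the control or that are central to each response. Promoters of 74 members were found in RefSeq (GRCh38.p14), and the 250 bases upstream of each start were searched on both strands. The heat shock element was searched as 3 units (GAANNTTCNNGAA or TTCNNGAANNTTC) and as 2 units (GAANNTTC or TTCNNGAA), so each 3-unit match also holds a 2-unit match. The 3-unit form was found for 5 members, HSPA6, HSP90AA1, HSP90AB1, DNAJB6 and HSPD1, or 6.76% of those searched, against 0.499% of the 10421 measured genes with a promoter and 0.441% of all 35116 promoter windows. The 2-unit form was found for 16 members (21.6%), among them HSPB1, HSPB8 and DNAJB1, against 12.3% of measured genes and 11.6% of all windows. The ER stress element (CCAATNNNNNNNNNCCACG or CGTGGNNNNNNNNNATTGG) was found for 6 members, all of the ER group: CALR, CANX, HSP90B1, HSPA5, PDIA6 and XBP1. That is 8.11% of members searched, against 0.154% of measured genes and 0.074% of all windows. DNAJB5, DNAJC12 and BAG3, described below, were searched and held no match to any of these elements. HSPB2 and HSF1 were among the members without a promoter and were not searched. In the stretches below, read 5′ to 3′ along the gene's strand, capitals mark the match.
HSPB8, chr12:119178803-119178890, plus strand: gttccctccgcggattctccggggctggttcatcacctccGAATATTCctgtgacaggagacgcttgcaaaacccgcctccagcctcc
HSPB1, chr7:76302451-76302538, plus strand: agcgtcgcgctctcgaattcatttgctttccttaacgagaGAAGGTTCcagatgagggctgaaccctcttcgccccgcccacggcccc
HSPA6, chr1:161524426-161524518, plus strand: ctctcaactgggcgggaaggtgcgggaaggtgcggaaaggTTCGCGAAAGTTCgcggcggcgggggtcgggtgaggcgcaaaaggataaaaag
HSP90AB1, chr6:44247738-44247883, plus strand: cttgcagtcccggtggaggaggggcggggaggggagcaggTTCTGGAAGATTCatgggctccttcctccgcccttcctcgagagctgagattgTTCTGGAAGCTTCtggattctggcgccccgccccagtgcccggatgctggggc
HSP90AA1, chr14:102087080-102087172, minus strand: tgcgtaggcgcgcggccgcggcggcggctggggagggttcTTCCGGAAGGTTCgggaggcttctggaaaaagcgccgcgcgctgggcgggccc
HSPA5, chr9:125241351-125241449, minus strand: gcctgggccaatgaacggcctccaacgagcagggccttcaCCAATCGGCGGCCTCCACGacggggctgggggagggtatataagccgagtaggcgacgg
CALR, chr19:12938359-12938442, plus strand: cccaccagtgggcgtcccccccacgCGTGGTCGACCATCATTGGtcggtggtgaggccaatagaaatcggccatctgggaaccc
XBP1, chr22:28800570-28800661, minus strand: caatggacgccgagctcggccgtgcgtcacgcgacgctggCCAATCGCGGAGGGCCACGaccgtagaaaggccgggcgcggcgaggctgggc
HSPB8 and HSPB1 are shown with 2 units, HSPA6, HSP90AB1 and HSP90AA1 with 3, and HSPA5, CALR and XBP1 with the ER stress element. The HSP90AB1 stretch holds 2 separate matches of 3 units. A match describes these letters and not a bound site.

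None of the members passed the test across all genes. In limma 0 of 84 reached an adjusted p under 0.05, as did 0 of all 12893 genes (0%), with a lowest adjusted p = 0.9999 in limma. Before adjustment, HSPB8 and DNAJB5 (2 of 84) had limma p under 0.05, both higher under LSD2 siRNA, and 0 members were lower at that p, against 1.33% of all genes that were higher and 0.357% that were lower at that p. Leaving out siRNA 3 or control array 2 took DNAJB5 off this count. Leaving out siRNA 2, or taking the spike-in signal of the arrays as a block, raised the count to 4, with HSPA6 and DNAJC12 as lower members. The shares of all genes at that p were not counted in any of these other settings. In the block fit the 2 control arrays were entered as separate samples, although the second is labelled a technical replicate. The only probe set of HSPB8 is an _s_at one, whose probes can match several transcripts, so HSPB8 has no value where such probe sets are left out. Of the members, 18 were higher than the control mean under all 3 siRNAs, or 21.4% against 17.9% of all genes, and 9 were lower, or 10.7% against 18.2%. On all 3 siRNA arrays 7 members read above both control arrays (8.63% of all genes did) and 6 read below both (10.1%). The 7 were HSPB8, DNAJB5, BAG3, CCT5, CCT2, DNAJA1 and DNAJC8, and the 6 were HSPA6, DNAJC12, DNAJC24, HSF1, ERN1 and DNAJC16. The count lower under all 3 siRNAs was 15 without control array 1, but the share of all genes was not counted in that setting. As no member passed the test, values are given below as descriptions.

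The arrays differed in one technical respect that touches these values. Bacterial poly-A transcripts added to the RNA before labelling read lower on control array 2 and on siRNA 3 than on the other 3 arrays, with median differences from control array 1 of -1.45 and -1.39 over 24 probe sets. Each siRNA is therefore also given against the control array with the like spike-in signal, control array 1 for siRNAs 1 and 2 and control array 2 for siRNA 3, and this is called the matched control. The part of this difference between arrays in the results was not tested. The control arrays differed from each other by a median size of 0.22 over the members, and by more than 0.5 for 21 of them. With both control arrays kept as separate samples and the spike-in signal as a block, limma again called 0 members, with a lowest adjusted p = 0.800. These p-values thus take technical replicates as independent.

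The 3 compartments had medians close to the control when the siRNAs were averaged. The ER medians differed between siRNAs, and the mitochondrial ones did so less widely. The median difference was 0.05 for the cytosolic genes, 0.02 for the mitochondrial genes and -0.07 for the ER genes, beside -0.02 for all genes. Under siRNA 1 the medians were 0.04 for cytosolic, -0.15 for mitochondrial and -0.24 for ER genes, and under siRNA 3 they were 0.09, 0.12 and 0.19. Under siRNA 2 all lay close together, at 0.01, 0.07 and 0.04, and the medians of all genes were -0.04, 0.03 and 0.01 under siRNAs 1, 2 and 3. The order of the compartments thus turned between siRNA 1, with the ER lowest, and siRNA 3, with the ER highest, and the difference between compartments was not tested. Against the matched control the ER medians were -0.34, 0.04 and 0.14, the cytosolic medians 0.02, -0.06 and 0.12, and the mitochondrial medians -0.15, 0.03 and 0.15. The ER was again lowest under siRNA 1, but under siRNA 3 it was no longer highest, as the mitochondrial median lay just above it.

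**Figure D1:**
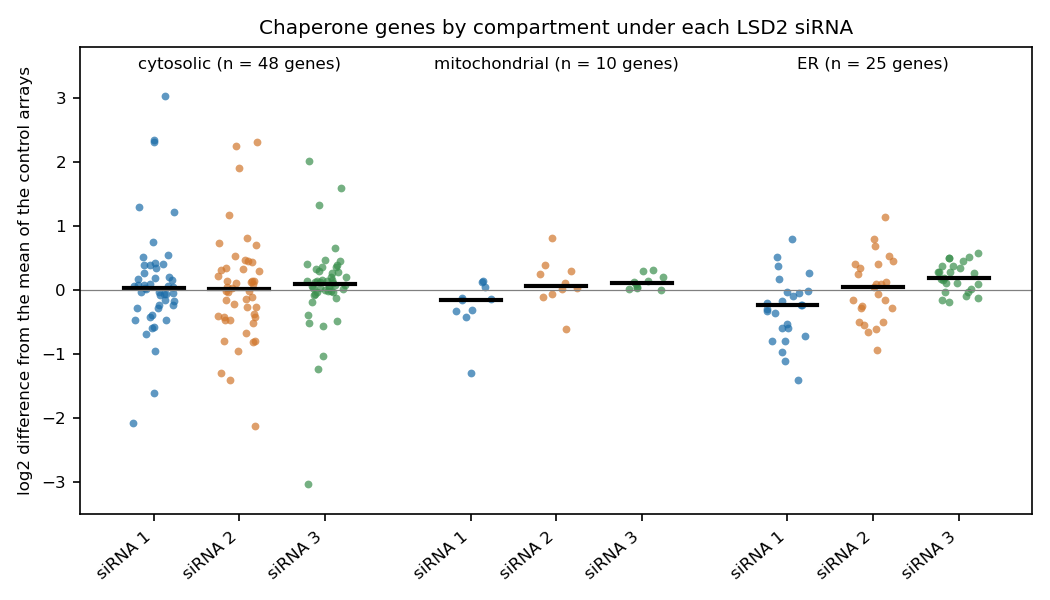
Each point is a gene and shows its log2 difference from the mean of the control arrays under 1 siRNA; black lines are medians over the genes of a compartment, and genes are spread sideways only for legibility. The ER median moves from -0.24 under siRNA 1 to 0.19 under siRNA 3, and the mitochondrial median from -0.15 to 0.12. The cytosolic median stays between 0.01 and 0.09, and that group holds the widest single values.

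The cytosolic small heat shock protein genes were the class farthest from the control. All 3 that were measured, HSPB1, HSPB2 and HSPB8, were higher than the control mean under each siRNA, as were 17.9% of all genes. The class median was 2.35, 1.18 and 0.47 under siRNAs 1, 2 and 3. With the matched control that median was 1.65, 0.52 and 1.40. Each was measured by 1 probe set. HSPB8 works with BAG3 in a complex that sends misfolded proteins to autophagy, and it had the widest mean difference of all members.

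HSPB8 (probe set 221667_s_at) read -1.78 and -2.27 on control arrays 1 and 2, against 1.01, 0.24 and 0.00 under siRNAs 1, 2 and 3. The siRNA arrays lay far above both controls, with no overlap. The mean difference was 2.44 ± 0.53 (SD, n = 3 siRNAs), or 5.43-fold if the logarithm has base 2. Its standard error in limma was 0.54 (adjusted p = 0.9999 over all genes). Against the matched control array it stood at 2.79, 2.02 and 2.27, so the size was much the same within each pair of like arrays.

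HSPB1, which encodes HSP27, an abundant stress-induced holdase, was less even. Its values were 0.00 and -1.31 on control arrays 1 and 2, against 1.65, 0.52 and -0.62 under siRNAs 1, 2 and 3. The array of siRNA 3 lay between the controls, and the groups overlapped. The mean difference was 1.17 ± 1.14 (SD, n = 3 siRNAs). It was 0.52 when control array 2 was left out and 1.83 when control array 1 was. Against the matched control it stood at 1.65, 0.52 and 0.69.

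HSPB2, a small heat shock protein known from muscle, lies next to CRYAB, another small heat shock protein gene that is outside the name set, in the RefSeq gene order. HSPB2 read 0.46 and -1.40 on control arrays 1 and 2, against 1.88, -0.24 and 0.00 under siRNAs 1, 2 and 3. CRYAB read 0.45 and -0.46 on control arrays 1 and 2, against 1.85, 0.00 and -0.02 under the siRNAs. In both neighbours the array of siRNA 1 stood above all others, and those of siRNAs 2 and 3 lay between the controls. On average HSPB2 stood at 1.01 ± 1.16 (SD, n = 3 siRNAs), but 0.08 without control array 2. With the matched control it stood at 1.42, -0.70 and 1.40, so it turned under siRNA 2. For HSPB8, HSPB1, HSPB2 and CRYAB alike, siRNA 1 gave the highest of the 5 arrays.

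**Figure D2:**
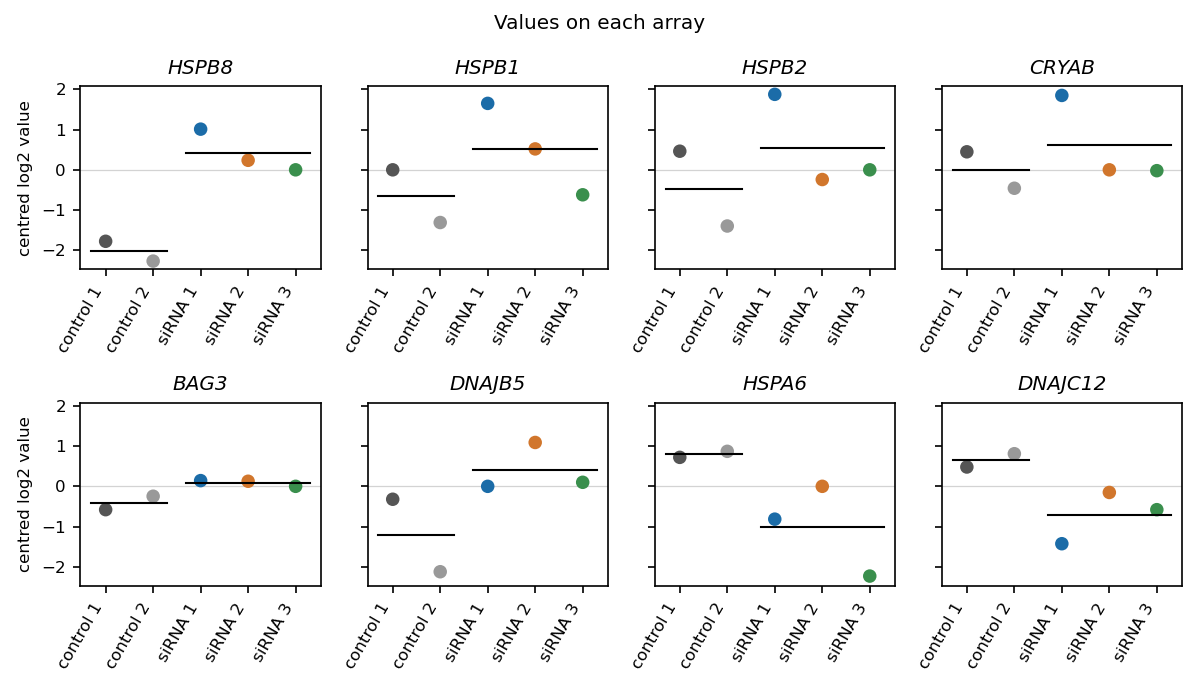
Centred log2 values of 8 genes on each of the 5 arrays; horizontal lines are the means of the 2 control arrays and of the 3 LSD2 siRNA arrays. HSPB8, BAG3 and DNAJB5 read above both controls on all siRNA arrays, HSPA6 and DNAJC12 below both, and HSPB1, HSPB2 and CRYAB overlap with their controls.

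BAG3, the partner of HSPB8 and itself a heat shock gene, stood higher with little spread. Its values were -0.58 and -0.25 on control arrays 1 and 2, against 0.14, 0.13 and 0.00 under siRNAs 1, 2 and 3, above both controls. On average it stood at 0.50 ± 0.08 (SD, n = 3 siRNAs; limma adjusted p = 0.9999), and against the matched control it was 0.72, 0.71 and 0.25. The other BAG genes lay closer to the control, from -0.35 for BAG5 to 0.17 for BAG4. BAG5 was lower under all 3 siRNAs, at -0.46, -0.47 and -0.12, and BAG6 higher, at 0.21, 0.03 and 0.02, both within the span of the controls on at least 1 array. BAG6 turned to a mean of -0.16 without control array 2, and with the matched control it stood at -0.04, -0.22 and 0.27.

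HSF1, the master regulator of the heat shock response, had a gene mean of -0.59, -0.51 and -0.48 under siRNAs 1, 2 and 3, or -0.53 ± 0.06 (SD, n = 3 siRNAs), and it lay below both controls on each array. Its 2 probe sets disagreed. Probe set 213756_s_at stood at -2.00, -1.70 and -0.20, with control array 2 above control array 1 by 1.12. Probe set 202344_at stood at 0.81, 0.67 and -0.76, with control array 2 below control array 1 by 1.31. The even gene mean was thus the average of opposite values under siRNAs 1 and 2, while both probe sets were below the control mean under siRNA 3. No direction is given for HSF1.

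The cytosolic HSP70 and HSP110 genes were mostly near the control. Of the 7 measured, 5 had a mean difference under 0.25 in size, against 48.8% of all genes, among them HSPA4 at 0.01, HSPA14 at -0.05 and HSPH1, the HSP110 exchange factor, at -0.19. HSPH1 stood at 0.04, -0.81 and 0.21 under siRNAs 1, 2 and 3, with siRNA 2 the low array. HSPA12B stood at 0.06, 0.35 and 1.59, but its control arrays were 2.11 apart, and without control array 2 its mean turned to -0.39.

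The exception was HSPA6, an HSP70 gene that is nearly silent without strong stress and that has a close pseudogene copy, HSPA7, so its signal may not be its own alone. HSPA6 (213418_at, its only probe set) read 0.72 and 0.87 on control arrays 1 and 2, against -0.82, 0.00 and -2.23 under siRNAs 1, 2 and 3. All siRNA arrays lay below both controls, but by very different amounts. The mean difference was -1.81 ± 1.13 (SD, n = 3 siRNAs; limma adjusted p = 0.9999), and against the matched control it was -1.54, -0.72 and -3.10. Of the 5 members with a 3-unit heat shock element, HSPA6 and HSP90AB1 were lower under all 3 siRNAs, against 18.2% of all genes. The other 3 were mixed. The medians of the 5 were -0.42, -0.43 and -0.01 under siRNAs 1, 2 and 3. Those of the 16 members with the 2-unit form, which include these 5, were 0.02, 0.12 and 0.09. Of the 16, 5 were higher and 2 lower under all 3, against 17.9% and 18.2% of all genes.

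HSP90 differed between its cytosolic forms and between siRNAs. HSP90AB1, the constitutive form, read 0.10 and 0.07 on control arrays 1 and 2, against -0.34, -1.21 and 0.07 under siRNAs 1, 2 and 3. The array of siRNA 2 was far below the others, and that of siRNA 3 lay within the controls. All 3 probe sets of HSP90AB1 placed siRNA 2 lowest, at -1.48, -1.03 and -1.37. The mean difference was -0.58 ± 0.65 (SD, n = 3 siRNAs). The inducible form HSP90AA1 stood at 0.35, -0.43 and 0.29, so that siRNA 2 again gave the lowest value. Under siRNA 2, PTGES3, which encodes the HSP90 co-chaperone p23, stood at -1.38, against -0.07 and 0.24 under siRNAs 1 and 3. It was not typical of its list. The 12 measured HSP70 and HSP90 co-chaperone genes had a median of 0.31 under siRNA 2, and 4 of them were below the control mean, against 48.3% of all genes.

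The cytosolic chaperonin, the ring that folds actin and tubulin, stayed near the control. Over its 8 measured subunit genes the class median was -0.05, 0.07 and 0.07 under siRNAs 1, 2 and 3, and 6 of the 8 had a mean difference under 0.25 in size, against 48.8% of all genes. The range ran from -0.29 for CCT8 to 0.38 for CCT5, with CCT2 at 0.10, CCT3 at 0.02, CCT4 at -0.01, CCT6A at 0.06, CCT6B at 0.02 and CCT7 at -0.16. CCT8 rested on controls 0.84 apart. CCT5 stood at 0.43, 0.31 and 0.39, with controls 0.02 apart, but its probe sets differed. Their controls lay apart in opposite directions, by 0.23 in 208696_at and -0.27 in 229068_at (control array 2 minus 1). The latter had a mean difference of 0.75 and the former one of 0.01, so the subunit gene with the widest value did not show it on both probe sets.

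J-domain genes were the largest family, with 39 members in all compartments. Their median was -0.04, 0.14 and 0.13 under siRNAs 1, 2 and 3, with 9 higher (23.1%, against 17.9% of all genes) and 4 lower (10.3%, against 18.2%) under all 3 siRNAs. The widest differences were in DNAJB5 and DNAJC12.

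DNAJB5 (212817_at, its only probe set) read -0.32 and -2.12 on control arrays 1 and 2, against 0.00, 1.09 and 0.10 under siRNAs 1, 2 and 3. The siRNA arrays lay above both controls, but the controls were 1.80 apart. The mean difference was 1.62 ± 0.60 (SD, n = 3 siRNAs; limma adjusted p = 0.9999), or 0.72 when control array 2 was left out and 2.52 when control array 1 was. DNAJB5 against the matched control stood at 0.32, 1.41 and 2.22.

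DNAJC12, a J-domain partner of the aromatic amino acid hydroxylases, among them the liver's phenylalanine hydroxylase, stood lower. It read 0.48 and 0.81 on control arrays 1 and 2, against -1.43, -0.15 and -0.58 under siRNAs 1, 2 and 3, below both controls on each. On average it stood at -1.37 ± 0.65 (SD, n = 3 siRNAs; limma adjusted p = 0.9999). Each of its 3 probe sets was below the control under all 3 siRNAs, with means of -1.20, -1.28 and -1.62. With the matched control it stood at -1.91, -0.63 and -1.39.

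The J-domain partners of cytosolic HSP70 lay on both sides of the control. DNAJB1, the classical heat-inducible HSP40, stood at -0.03, 0.14 and -0.03 under siRNAs 1, 2 and 3. DNAJA1, a J-domain protein of HSP70 that is farnesylated, stood at 0.40, 0.11 and 0.46, above both controls on each array. DNAJA2 was lower under all 3, at -0.46, -0.40 and -0.07, with siRNA 3 between the controls. DNAJB4 (0.19, 0.33 and 0.66) and DNAJB2 (0.39, 0.74 and 0.29), further J-domain members, were higher under all 3 but overlapped their controls. DNAJC24, which acts in the synthesis of diphthamide on elongation factor 2, stood at -0.96, -0.94 and -0.19. That value rested on probe set 1570048_at, with a mean of -1.35, while 213853_at had a mean of -0.04.

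Single siRNAs gave wide values in DNAJC5 and DNAJC6. DNAJC5, the cysteine string protein of secretory vesicles, stood at -0.15, -2.12 and 0.14. All 3 of its probe sets placed siRNA 2 lowest, at -1.34, -1.21 and -3.82, so the size but not the order depended on the probe set. DNAJC6, auxilin, which uncoats clathrin vesicles, stood at -0.16, 1.92 and -1.03 on 1 probe set. DNAJC22, outside the compartments, stood at 0.05, 1.32 and 0.33, and each of its 3 probe sets placed siRNA 2 highest.

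**Figure D3:**
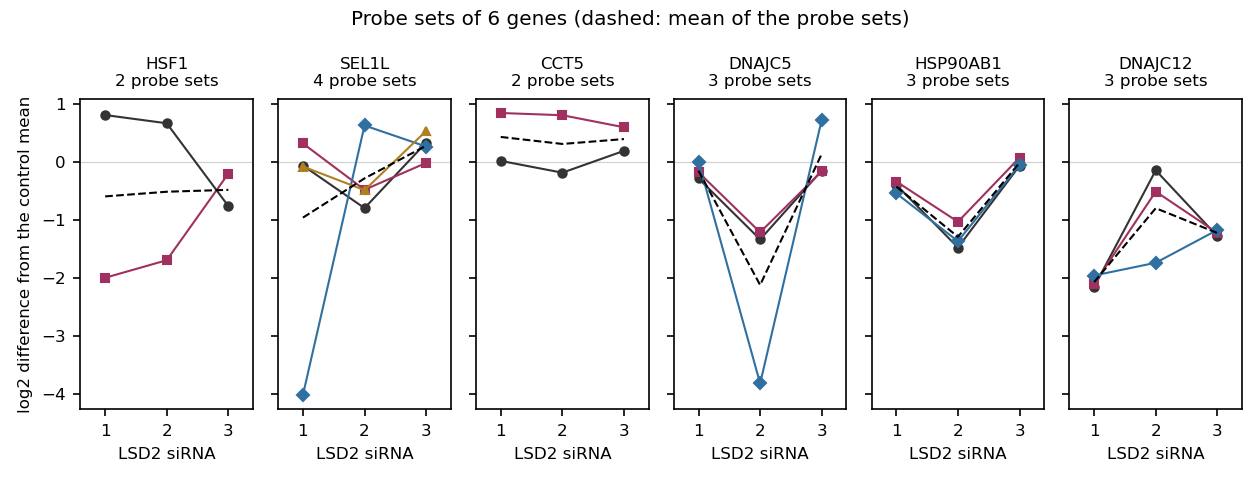
Log2 difference from the control mean under each siRNA for the separate probe sets of 6 genes (solid lines) and for their mean, which is the gene value (dashed). All probe sets of DNAJC12 lie below 0 under each siRNA, those of HSP90AB1 and DNAJC5 are lowest under siRNA 2, HSF1 has opposite ones under siRNAs 1 and 2, and single probe sets carry the values of SEL1L under siRNA 1 and of CCT5.

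Mitochondrial chaperone genes stayed close to the control when the siRNAs were averaged. The matrix HSP70 gene HSPA9 stood at -0.12, 0.02 and 0.15 under siRNAs 1, 2 and 3, the chaperonin gene HSPD1 at -0.42, 0.03 and 0.10 and its co-chaperonin gene HSPE1 at 0.06, 0.11 and 0.05. HSPE1 was the only mitochondrial member higher under all 3 siRNAs, and 0 were lower under all 3. The spread of means over the 10 genes ran from -0.24 for DNAJC28 to 0.33 for DNAJC15, a J-domain protein of the mitochondrial inner membrane. Of the 10, 9 had a mean under 0.25 in size, against 48.8% of all genes. Under siRNA 1, 7 of the 10 were below the control mean (53.4% of all genes were), and under siRNA 3 none was, with 48.7% of all genes below. DNAJC28 was the farthest single value, at -1.29 under siRNA 1, on 1 probe set. Under siRNA 2, DNAJC15 stood at 0.81 and DNAJC30 at -0.60, so values under single siRNAs were wider than the means.

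Among the ER genes the difference between siRNAs 1 and 3 was the main feature. Under siRNA 1, 20 of 25 were below the control mean, against 53.4% of all genes, and 14 were below both control arrays, against 40% of all genes. Under siRNA 3, 6 of 25 were below the control mean, against 48.7% of all genes, and 11 were above both control arrays, against 35.2%. The value under siRNA 1 was below that under siRNA 3 in 20 of 25 ER genes, against 54.5% of all genes, and below that under siRNA 2 in 20 of 25, against 52.8%. The mitochondrial genes went the same way, with 7 of 10 lower under siRNA 1 than under siRNA 3 and 8 of 10 lower than under siRNA 2. The arrays of siRNAs 1 and 2 had like spike-in signals, and that of siRNA 3 read lower. Each siRNA was on 1 array, so a difference of the array and one of the siRNA cannot be told apart.

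**Figure D4:**
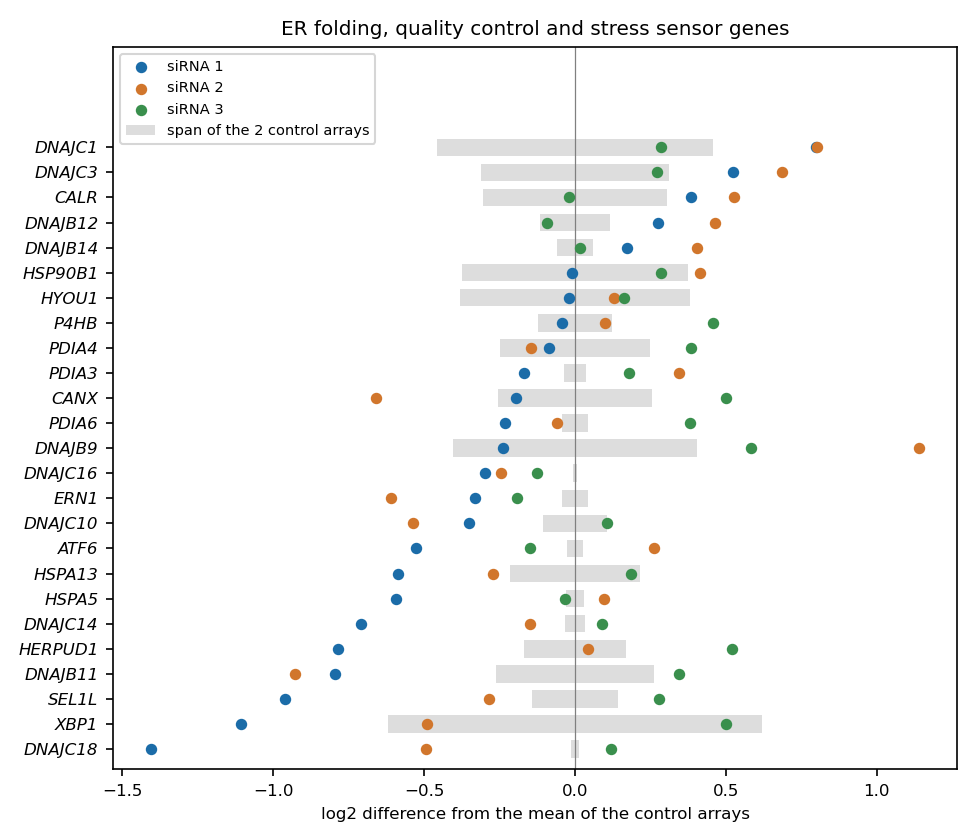
The 25 ER genes ordered by their value under siRNA 1; points are log2 differences from the control mean and grey bars span the 2 control arrays. Most points of siRNA 1 lie left of 0, from -1.40 for DNAJC18 upwards, and most of those of siRNA 3 lie right of 0.

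The ER sensors and the genes of ER-associated degradation had the lowest median of the ER classes under siRNA 1. The median of the 5 was -0.79, -0.28 and 0.28 under siRNAs 1, 2 and 3. Under siRNA 1 each of the 5 lay below both control arrays, as did 40% of all genes. With the matched control the medians were -0.50, 0.13 and -0.12, so the direction turned under siRNAs 2 and 3. XBP1, which encodes the factor that IRE1 activates, read -0.13 and 1.11 on control arrays 1 and 2, against -0.61, 0.00 and 0.99 under siRNAs 1, 2 and 3. Its controls were 1.24 apart, and siRNAs 2 and 3 fell between them. With the matched control XBP1 stood at -0.49, 0.13 and -0.12. HERPUD1, an ER stress gene of the degradation machinery, read -0.21 and 0.13 on control arrays 1 and 2, against -0.83, 0.00 and 0.48 under the siRNAs. Only siRNA 1 was below both of its controls and only siRNA 3 above both.

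SEL1L, the partner of the ubiquitin ligase HRD1, stood at -0.96, -0.28 and 0.28. The value under siRNA 1 came from 1 of 4 probe sets, 202063_s_at, at -4.02, while the other 3 ranged from -0.08 to 0.32. ATF6 stood at -0.53, 0.26 and -0.15, with 3 of its 4 probe sets between -0.90 and -0.59 under siRNA 1 and 217550_at at -0.01. ERN1, which encodes IRE1, was the sensor gene lower under all 3 siRNAs by its gene value. It read 0.13 and 0.05 on control arrays 1 and 2, against -0.24, -0.52 and -0.10 under siRNAs 1, 2 and 3, below both controls on each. The mean difference of ERN1 was -0.38 ± 0.21 (SD, n = 3 siRNAs), and the means of its 3 probe sets were all below 0, from -0.62 to -0.20. Under single siRNAs the probe sets differed. Only 227755_at was lower under all 3, while 207061_at stood at 0.07 under siRNA 2 and 235745_at at 0.10 under siRNA 3. The gene value under siRNA 2 rested most on 235745_at, at -1.59.

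The lumenal chaperones and isomerases held narrower values. HSPA5, encoding BiP, read 0.01 and 0.07 on control arrays 1 and 2, against -0.55, 0.14 and 0.01 under siRNAs 1, 2 and 3. The array of siRNA 1 lay well below both controls, while siRNAs 2 and 3 lay within 0.10 of the control mean. Its 2 probe sets gave -0.39 and -0.80 under siRNA 1 but 0.40 and -0.47 under siRNA 3, so the gene value there averaged opposite ones. The mean differences were 0.23 for HSP90B1, 0.09 for HYOU1, the ER HSP110, 0.30 for CALR and -0.12 for CANX. For HSP90B1, HYOU1 and CALR the control arrays were between 0.61 and 0.76 apart, with control array 2 the lower. Without control array 2 the means of all 4 turned, to -0.15 for HSP90B1, -0.29 for HYOU1, -0.01 for CALR and 0.14 for CANX. CANX stood at -0.19, -0.66 and 0.50, and each of its 4 probe sets was lowest under siRNA 2 and highest under siRNA 3.

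The disulfide isomerases PDIA3, PDIA4, PDIA6 and P4HB make and rearrange disulfide bonds in secreted proteins. All 4 were below the control mean under siRNA 1, as were 53.4% of all genes. Under siRNA 3 they were above both control arrays, as were 35.2% of all genes, and stood at 0.18, 0.38, 0.38 and 0.46. PDIA6 had the most even probe sets, with all 4 between 0.34 and 0.42 under siRNA 3 and between -0.33 and -0.18 under siRNA 1. Their mean differences were small, from 0.03 for PDIA6 to 0.17 for P4HB. The 6 ER genes with the ER stress element had a median of -0.21, 0.02 and 0.33 under siRNAs 1, 2 and 3, and 0 of them were higher or lower under all 3. Of all genes, 17.9% were higher and 18.2% lower under all 3.

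ER J-domain genes held the ER members on one side of the control under all siRNAs other than ERN1. DNAJC1 stood at 0.80, 0.80 and 0.29 and DNAJC3, which encodes the BiP partner p58IPK, at 0.52, 0.69 and 0.27. For both, control array 2 was low, by 0.92 and 0.62, and siRNA 3 lay between the controls. With the matched control DNAJC1 stood at 0.34, 0.34 and 0.74 and DNAJC3 at 0.21, 0.37 and 0.58. DNAJB14, a J-domain protein of the ER membrane, stood at 0.17, 0.40 and 0.02, with siRNA 3 between the controls and at -0.04 against the matched control. Of its probe sets, 226399_at stood at -0.20 under siRNA 1 and 219237_s_at at -0.09 under siRNA 3. DNAJC16 was lower, at -0.30, -0.24 and -0.13, but its probe set 212908_at stood at 0.04 under siRNA 3. DNAJB9, a target of XBP1, stood at -0.24, 1.14 and 0.58, but siRNA 1 lay between controls that were 0.81 apart. DNAJC18 stood at -1.40, -0.49 and 0.12, and its 2 probe sets gave -0.66 and -2.15 under siRNA 1.

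Other genes of the folding pathways, from lists that do not overlap the members, were measured for 63 genes. In limma 0 of them reached an adjusted p under 0.05. ASNS alone, a lower gene, had a limma p under 0.05 before adjustment. Of all genes, 0.357% were lower and 1.33% higher at that p. Among ER folding and degradation genes outside the name set, 21 of 27 listed were measured, and their medians of -0.21, 0.07 and 0.23 under siRNAs 1, 2 and 3 had the order seen in the ER members. In that list CRELD2 stood at 0.12, 0.66 and 0.59 and SIL1, the exchange factor of BiP, at 0.42, 0.52 and 0.29, with SIL1's controls 0.72 apart.

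The PERK and ATF4 branch of the ER stress response had the median of means farthest from 0 among the lists, at -0.37, though not under siRNA 1. Its 9 measured genes had medians of -0.19, -0.66 and -0.42 under siRNAs 1, 2 and 3, with 3 lower and 0 higher under all 3, where 18.2% and 17.9% of all genes were. ASNS, the asparagine synthetase gene and an ATF4 target, stood at -1.20, -1.30 and -1.25, and ATF4 at -0.75, -1.23 and -0.35. ASNS was measured by 1 probe set, an _s_at one, with control arrays 0.41 apart. DDIT3, which encodes CHOP, stood at -0.49, -0.90 and 0.21, so it was not on one side.

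The co-chaperone, heat shock factor, prefoldin and mitochondrial lists had medians of means nearer to 0, but single siRNAs gave wider medians. The 12 HSP70 and HSP90 co-chaperone genes had a median mean difference of 0.13 (0.02, 0.31 and 0.07 under siRNAs 1, 2 and 3). UNC45A stood at 0.48, 0.53 and 0.31 and CHORDC1 at -0.31, -0.56 and -0.09. Neither probe set of CHORDC1 was lower under all 3 siRNAs. Probe set 218566_s_at stood at 0.43 under siRNA 1, and 239436_at at -1.05 there and 0.02 under siRNA 3. The 7 heat shock factor and other HSF1 target genes had a median mean difference of 0.07 (0.37, 0.01 and 0.33), with DEDD2 the 1 gene higher under all 3, at 0.37, 0.65 and 0.62. The 5 prefoldin genes, whose products hand actin and tubulin to the chaperonin, had 0.09 (0.17, 0.06 and -0.05), with PFDN2 at -0.34, -0.32 and -0.26 and PFDN5 at 0.05, 0.13 and 0.08. The 9 mitochondrial proteostasis genes, proteases, exchange factors and the HSP90 chaperone TRAP1, had -0.16 (-0.01, -0.30 and 0.06), and GRPEL2, an exchange factor of HSPA9, stood at -1.07, -0.77 and -0.48, below both controls.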

How the data were processed

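RNA of HepG2 cells was measured on 5 expression arrays, 3 of LSD2 siRNA and 2 of control siRNA. Per the submitters' processing notes, signals were made with MAS5. As values fall on both sides of 0, what the authors deposited was taken to be log2 signal. In each of the 30137 probe sets the median over the arrays was exactly 0, so levels were absent and signal over background is unknown. The base of the logarithm and any scaling or filter are not given in the sources used here; base 2 is an assumption.

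Gene values are means over probe sets that carry 1 symbol in the platform annotation (24151 probe sets, 12893 genes). Of the 84 members, 62 had several probe sets, and in 43 of these all had means of the same sign. The control arrays were averaged to 1 sample. All genes entered 1 limma fit (version 3.58.1, R 4.3.3; lmFit, then eBayes; two-sided tests), with 2 residual degrees of freedom from the spread between siRNAs and Benjamini-Hochberg adjustment at 0.05. Nothing in the labels says that the arrays came from separate cultures, so the p-values reflect the spread among these samples alone, which may be technical. The fit was tested on simulated data. The members, compartments and lists were chosen with earlier results of these data known.

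Named genes were KDM1B, up to 4 members per compartment and direction by the weakest siRNA, central members by role, members set apart under 1 siRNA, and up to 2 genes per list. Others, such as CRYAB, PTGES3, DDIT3, HSPA4, HSPA14, DNAJC8, DNAJC15, DNAJA2, DNAJB2, DNAJB4, TRAP1, BAG4, BAG5 and BAG6, were named after their values were seen. Alternatives were quantile normalization, other choices of probe sets, genes with control arrays within 0.5, leaving out each array, and the spike-in signal as a block. In the last, the 2 control arrays were entered as separate samples.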

Additional observations from a re-analysis of the deposited data

How the results depend on the processing

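In limma 0 members passed the threshold under every alternative run, with lowest adjusted p-values from 0.602, without control array 1, to 0.9999. The cytosolic median moved to 0.10 under quantile normalization, and to 0.11 and 0.062 under siRNAs 1 and 2. The cytosolic median was also -0.031 under siRNA 1 without _s_at and _x_at probe sets, and under siRNA 2 it was 0.089 with 1 probe set per gene by suffix, -0.069 among genes with control arrays within 0.5, -0.062 against the matched control, and between -0.062 (without control array 2) and 0.018 (without control array 1) when 1 control array was left out. The mitochondrial median under siRNA 2 was 0.26 without _s_at and _x_at probe sets. The ER median under siRNA 1 lay between -0.34 and -0.15 under all alternatives run for it, and with the siRNAs averaged it lay between -0.16 and 0.12. Members higher under all 3 siRNAs numbered 11 among the 63 genes with control arrays within 0.5, where fewer genes were counted, and members lower under all 3 numbered 15 without control array 1. The shares of all genes were not counted in these settings. HSF1 turned to 0.24 with 1 probe set per gene by suffix and without _s_at and _x_at probe sets, since only its higher probe set was then used. HSPA12B turned to -0.39 without control array 2 and was 1.73 without control array 1. Of the 61 named genes, 32 lay on 1 side of the control under all 3 siRNAs, and 2 of these, HSF1 and HSPA12B, reversed. BAG6, named outside the rule, also turned, to -0.16 without control array 2. No paired analysis was possible because the 2 control arrays are technical replicates of 1 sample, so the groups share fewer than 2 independent replicate numbers. The number of arrays limits the precision of every value.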
